A study of Sus scrofa with 2 samples.

Results

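Of the 19550 protein-coding genes on the placed pig chromosomes, 7 genes of the major histocompatibility complex (MHC) on chromosome 7 are described here. They are PSMB9, PSMB8, TAP1 and TAP2 of the class II part, and TNF, LTA and LTB of the class III part. The genes were chosen by name with the loop list already known, so their nearness to loops is a description and was not tested. A loop was counted for them if an anchor held a gene end or lay within 50 kb of one, which took 7 of the 3410 listed loops. The domains described are the 3 of 1927 topologically associating domains (TADs, which are regions whose DNA contacts itself more often than it contacts neighbouring DNA) that overlap the class II or class III part. The data come from pig (Sus scrofa) spleen, 2 biological replicates of a single group with no treatment named, by in situ Hi-C, an assay that counts how often DNA fragments are ligated to each other because they were near in the fixed nucleus. The labels give no breed, sex or age. Both tables cover the series, so there is 1 value per loop, there is no spread between replicates, and no test between groups was possible. Each loop is listed by the authors with its observed contacts, those expected from the donut of pixels around it and from 3 other neighbourhoods, and 4 false discovery rates (FDR). Each contact count is given with its 95% exact Poisson interval, which covers counting error only. Sequencing depth is unknown here.

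The class II part of the MHC encodes, beside the molecules that show peptides to helper T cells, the machinery that prepares peptides for class I molecules. PSMB8 and PSMB9 are catalytic subunits that interferon gamma places in the immunoproteasome, which cuts proteins into peptides. TAP1 and TAP2 together form the transporter that carries those peptides into the endoplasmic reticulum. TNF, lymphotoxin alpha (LTA) and lymphotoxin beta (LTB) are related cytokines, and the lymphotoxins are needed, as shown in mice, for the layout of B cell follicles in the spleen. In pigs the centromere of chromosome 7 lies between the class II part and the class I and III parts.

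In each part the genes formed a compact block. Positions are those of the RefSeq table of the assembly Sscrofa11.1, which gives no strand, so "gene end" means either annotated end. TAP2 (chr7:25045085-25056915), PSMB8 (chr7:25058456-25061666), TAP1 (chr7:25062772-25071989) and PSMB9 (chr7:25072133-25077508) lay within 32.4 kb. TAP1 and PSMB9, which in human are transcribed away from each other out of a shared promoter, were separated by 143 bp. LTA (chr7:23696387-23698280), TNF (chr7:23699635-23702393) and LTB (chr7:23704842-23707036) lay within 10.7 kb. The blocks were 1338 kb apart. Each block is shorter than or little longer than a 25 kb anchor, so its genes share anchors and are not independent observations.

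**Figure D1:**
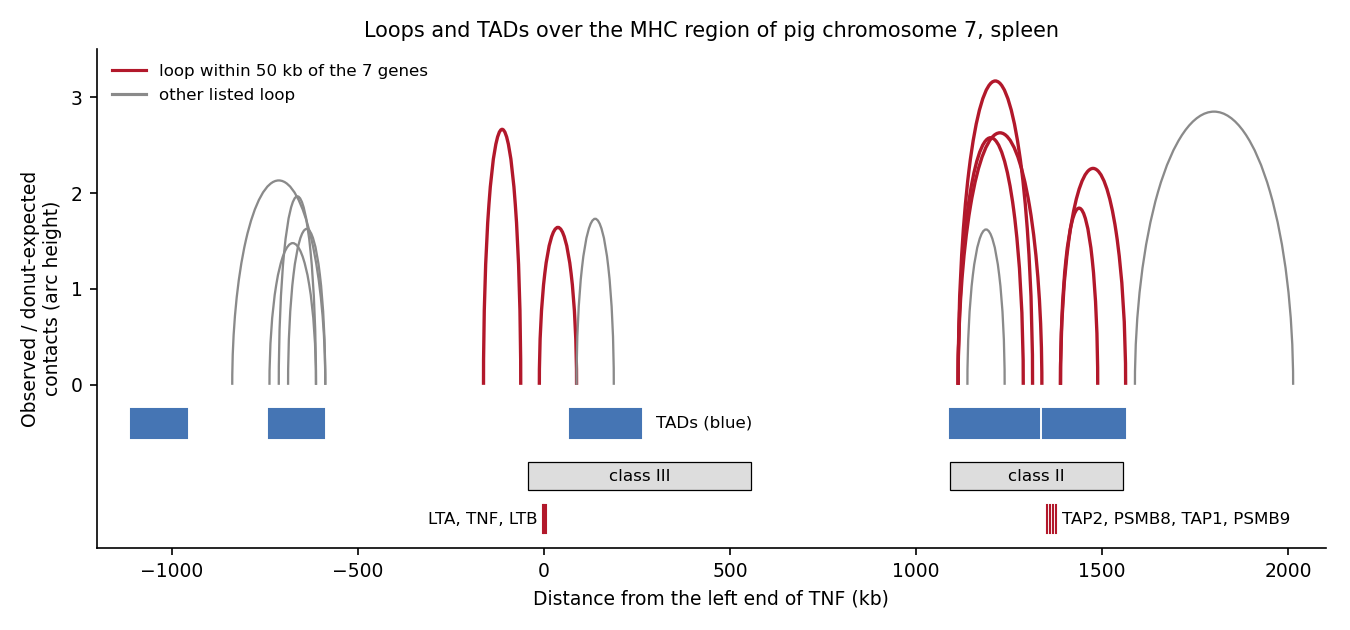
Listed loops (arcs) and TADs (blue bars) over the MHC region, by distance in kb from the left end of TNF; arc height is the ratio of observed contacts to those expected from the surrounding donut of pixels. The 7 loops counted for the genes (dark red) have ratios of 1.64 to 3.17 and lie near the TNF block, where the leftmost lies just outside the class III part, or in the class II part, and none joins the class III to the class II part; grey arcs are other listed loops, grey boxes the spans of the class II and class III parts.

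In the antigen-processing block, loops left the block on both sides and none crossed it. To the right, the anchor chr7:25075001-25100000 held an end of PSMB9, the one away from TAP1, and an end of BRD2, a bromodomain protein that binds acetylated histones. PSMB9 was the single one of the 7 genes with 2 loops at an end, as 4.85% of all protein-coding genes have 2 or more. One of them spanned 100 kb, to chr7:25175001-25200000, and its partner gene was SLA-DOA, the alpha chain of the DO molecule that modulates peptide loading of class II molecules. This loop had 194 observed contacts (167.7 to 223.3) against 105 expected from the donut, a ratio of 1.84 (1.59 to 2.12). The other spanned 175 kb, to chr7:25250001-25275000, and its partner was RING1, a Polycomb protein. It had 115 contacts (94.9 to 138.0) against 50.9 expected, a ratio of 2.26 (1.86 to 2.71). The intervals of the ratios overlapped, and the spans differ, so the loops cannot be ranked. The stretch between TAP1 and PSMB9 itself lay outside the anchor, 2.87 kb to its left.

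To the left, 3 touching pixels joined one anchor to 3 adjoining bins that end at TAP2. The common anchor, chr7:24800001-24825000, held an end of BTNL2, a butyrophilin-like protein that dampens T cell activation. SLA-DRA, the alpha chain of the DR class II molecule, began 37 bp to the right of this anchor. It thus lay in the adjoining anchor, chr7:24825001-24850000, of another 100 kb loop, which was not counted for the 7 genes. That loop had 162 contacts (138.0 to 189.0) against 99.98 expected, a ratio of 1.62 (1.38 to 1.89). The pixel nearest to the block, 225 kb long, ended in chr7:25025001-25050000, which held both ends of SLA-DOB, the beta chain of the DO molecule, and an end of TAP2. It had 125 contacts (104.0 to 148.9) against 47.6 expected, a ratio of 2.63 (2.19 to 3.13). The middle pixel, of 200 kb, ended in chr7:25000001-25025000, 20.1 kb from TAP2, where the single protein-coding locus is unnamed. Its ratio was the highest of the 7 loops, with 140 contacts (117.8 to 165.2) against 44.2 expected, or 3.17 (2.67 to 3.74). The third, of 175 kb, ended in chr7:24975001-25000000, with an end of SLA-DQB1, the beta chain of the DQ class II molecule, and lay 45.1 kb from TAP2. It had 146 contacts (123.3 to 171.7) against 56.6 expected, a ratio of 2.58 (2.18 to 3.03). The 3 intervals overlapped, and touching pixels may be 1 loop listed 3 times. When touching pixels were reduced to the one with the lowest FDR, here the middle one, TAP2 had no anchor at its ends.

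PSMB8 and TAP1 lay between these anchors and had no loop at their ends. The nearest anchor was 8.46 kb from PSMB8, on its left, and 3.01 kb from TAP1, on its right. Both genes fell wholly inside the 25 kb, chr7:25050001-25075000, that no listed loop on the chromosome spanned. Of 1474 such unspanned stretches between loops on the placed chromosomes, 95 (6.45%) were as short or shorter. Within 50 kb, PSMB8, TAP1 and PSMB9 had 4 loops each and TAP2 had 5, all of them among the 5 loops just described.

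**Figure D2:**
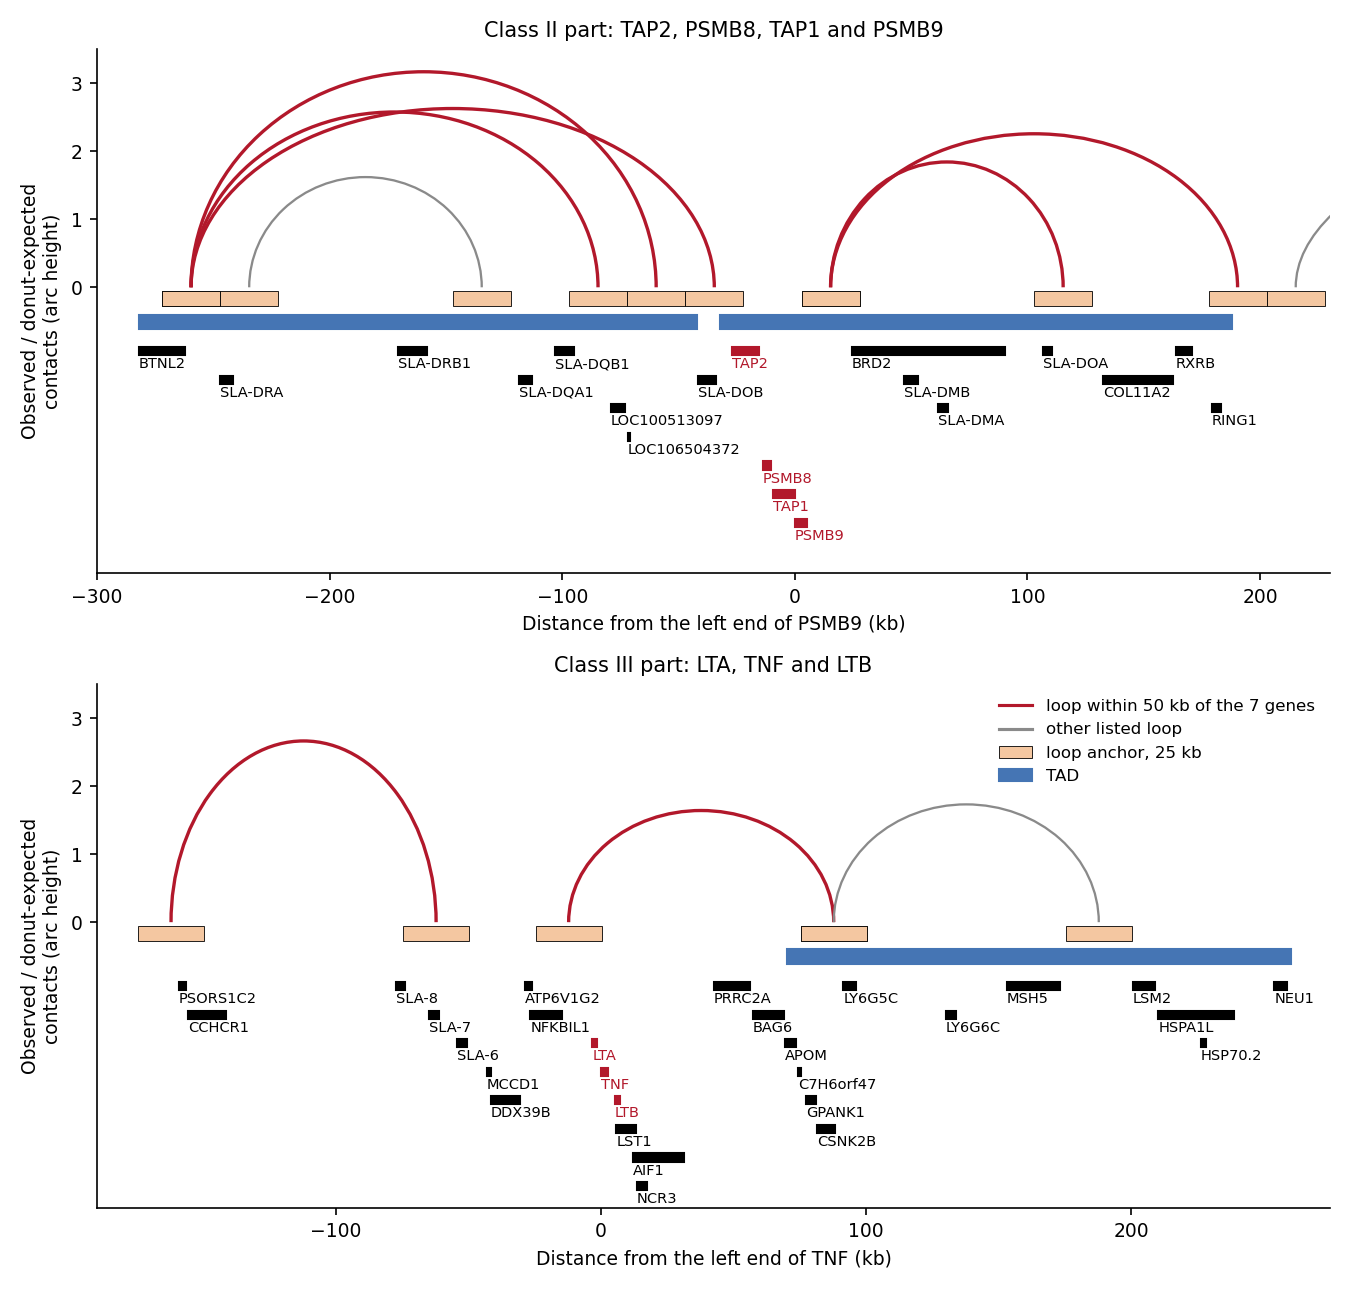
Loops (arcs, height as ratio of observed to donut-expected contacts), 25 kb anchors (orange), TADs (blue) and protein-coding genes of the class II (top) and class III (bottom) parts, by distance in kb from the left end of PSMB9 or of TNF; genes drawn are those at the anchors and those of the class II and class III lists. No arc passes over PSMB8 and TAP1, and the gap between the 2 TADs of the top panel holds SLA-DOB; in the bottom panel LTA and TNF lie at an anchor left of the TAD.

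The boundary between the 2 class II domains fell beside the same block. The left TAD, chr7:24790001-25030000 (240 kb), held 7 whole protein-coding genes, among them SLA-DRA, SLA-DRB1, SLA-DQA1 and SLA-DQB1. The right TAD, chr7:25040001-25260000 (220 kb), held 13, with all 4 antigen-processing genes together with BRD2, SLA-DMA and SLA-DMB (the DM molecule, which loads peptides onto class II molecules), SLA-DOA and RING1. The 10 kb between them held 1 whole gene, SLA-DOB. Of 1788 gaps between TADs, with a median of 360 kb, 48 (2.68%) were 10 kb or shorter. An end of TAP2 lay 5.08 kb and one of PSMB8 18.5 kb from the left edge of the right TAD, and 18.7% of all protein-coding genes have an end within 20 kb of a TAD edge. TAP1 and PSMB9 were farther, at 22.8 and 32.1 kb. The 225 kb loop to TAP2 ran from 10 kb inside the left edge of the left TAD to an anchor over its right edge. The 175 kb loop from PSMB9 reached an anchor over the right edge of its TAD but began 35.0 kb inside the left one. Loops and TADs were called on the same contacts and are not independent.

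In the TNF block, LTA and TNF shared a single loop. The anchor chr7:23675001-23700000 held both ends of LTA, an end of NFKBIL1, a gene related to inhibitors of NF-kB, and the left end of TNF, which lay 366 bp inside its right edge. LTB lay 4.84 kb to the right of it. The loop spanned 100 kb to chr7:23775001-23800000, where the partner genes were CSNK2B, the regulatory subunit of casein kinase 2, LY6G5C, GPANK1 and C7H6orf47. It had 158 contacts (134.3 to 184.6) against 96.2 expected, a ratio of 1.64 (1.40 to 1.92), the lowest of the 7 loops. The largest of its 4 FDR values was 0.0694, and 13.8% of autosomal loops had one as high or higher. The partner anchor was also the start of the next loop, which was not counted for the 7 genes, since its nearest anchor was 68.0 kb from LTB. That loop joined it to VWA7 and VARS, a valyl-tRNA synthetase, with 217 contacts against 125 expected, a ratio of 1.73 (100 kb).

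Within 50 kb of LTA and TNF there was 1 further loop, to the left, and it had the lowest FDR of the 7. It joined chr7:23525001-23550000, with ends of PSORS1C2 and CCHCR1, to chr7:23625001-23650000, with the non-classical class I genes SLA-6, SLA-7 and SLA-8, over 100 kb. It had 263 contacts (232.2 to 296.8) against 98.7 expected, a ratio of 2.66 (2.35 to 3.01). The largest of its 4 FDR values was 3.28e-22, and 0.583% of autosomal loops had one as low or lower. Its nearer anchor was 46.4 kb from LTA and 49.6 kb from TNF, so it was among the loops just inside the limit of 50 kb. LTB, which lay beyond that limit, had 1 loop against 2 each for TNF and LTA. No loop spanned the 25 kb between that anchor and the one at LTA, which held MCCD1, DDX39B and ATP6V1G2.

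No TAD covered LTA, TNF or LTB. They lay in a 660 kb gap, chr7:23110001-23770000, and the nearest edge was 63.0 kb from LTB, 67.6 kb from TNF and 71.7 kb from LTA. The 4 antigen-processing genes all lay in a TAD, as 35.4% of all protein-coding genes do at least in part. The TAD to the right of TNF, chr7:23770001-23960000 (190 kb), was the single one over the class III part. It held 19 whole genes, from C7H6orf47 to NEU1, or 10 per 100 kb, and no other of the 1923 placed TADs had as many per length (median 0.556). The left anchor of this TAD's inner loop, 5 kb inside its edge, was the anchor that LTA and TNF looped to.

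**Figure D3:**
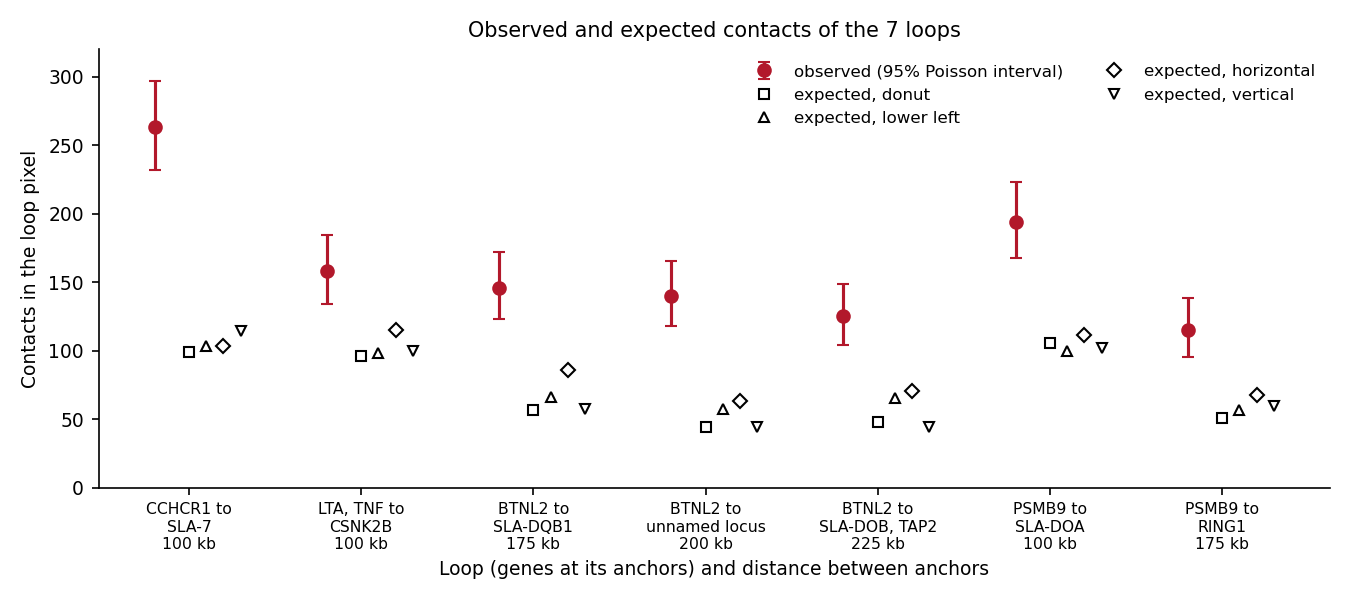
Observed contacts in the loop pixel (dark red, with 95% exact Poisson intervals) and the 4 expected values in the authors' table (open symbols), for the 7 loops in order along the chromosome; labels give genes at the anchors and the distance between anchors. In each loop the interval lies above all 4 expected values. Being listed largely brings this about, since every listed loop has 4 FDR values of at most 0.0999 against them. The loop from CCHCR1 to SLA-7 has the most contacts, 263, and that from PSMB9 to RING1 the fewest, 115.

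Beside autosomal loops of the same length, the left-hand class II loops had high donut ratios and the LTA and TNF loop had one below the median. Contacts fall with distance, so each loop was set beside the autosomal loops of its own span, as a description. The ratio of the 200 kb loop of BTNL2 was at or above that of 97.7% of 256 autosomal loops, whose median was 2.07. The 175 kb and 225 kb pixels next to it were at or above 93.0% of 342 and 90.7% of 215 loops (medians 2.04 and 2.07). Of the PSMB9 loops, that to RING1 was at or above 76.0% of 342, and that to SLA-DOA at or above 69.3% of 719 (median 1.73). The LTA and TNF loop was at or above 33.0% and the SLA-7 loop 98.5% of the same 719. Ratios depend on the neighbourhood. Against the horizontal one, the smallest of the 4, they were 1.70, 2.21 and 1.78 for the 175, 200 and 225 kb pixels of BTNL2. The LTA and TNF loop had 1.38 there. These horizontal ratios were not set beside other loops. In observed contacts, which are not normalized, all 7 loops were above the median of their length. Their donut-expected contacts were at or above those of 32.0% (200 kb loop of BTNL2) to 88.9% (PSMB9 to SLA-DOA) of loops of the same length. The LTA and TNF loop ranked at 80.1% in expected contacts and 71.5% in observed ones. The median of the 7 loops was 146 contacts, against 109 for all 3261 autosomal loops. Their median ratio was 2.58 against 2.001, at a median span of 175 kb in both. Of the 7, 3 are touching pixels and weigh on these medians. When touching pixels were reduced to 1 the median ratio was 2.26, and with only the 4 loops within 20 kb of the genes it was 2.05.

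**Figure D4:**
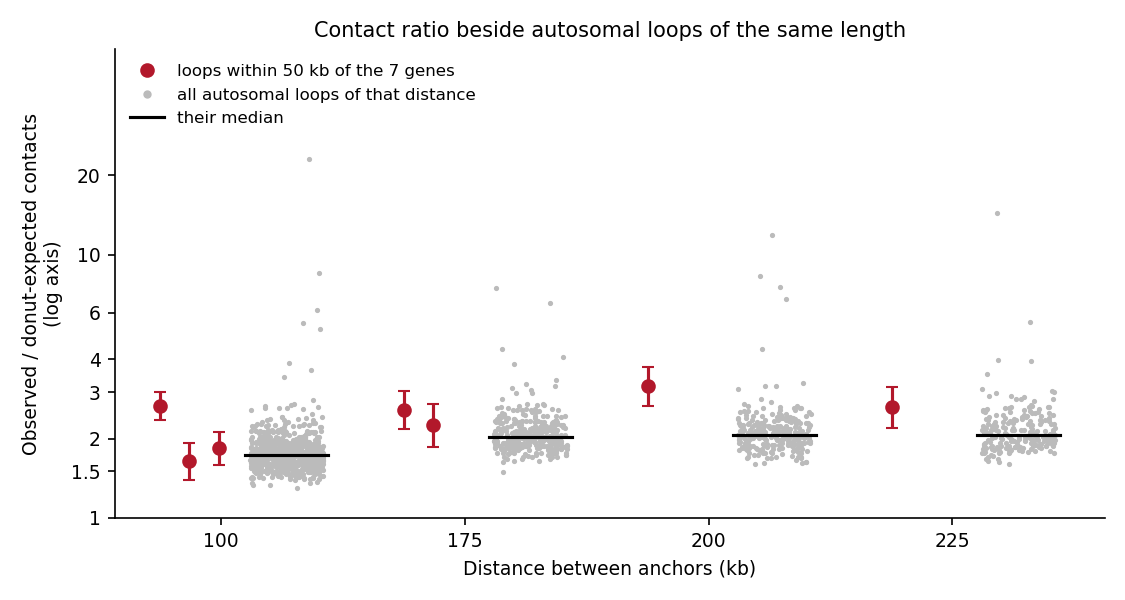
Ratio of observed to donut-expected contacts (log axis) by distance between anchors in kb, for the 7 loops (dark red, with 95% Poisson intervals of the observed count) and all autosomal loops of the same distance (grey, black line at the median). The 200 kb loop, at 3.17, is above 2.07, the median of its length; the lowest dark red point, the LTA and TNF loop at 1.64, is below 1.73.

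Over the 7 genes, 4 had an end in an anchor (PSMB9, TAP2, TNF and LTA), against 17.3% of all protein-coding genes and 21.7% of those on chromosome 7. All 7 had an end within 10 kb of an anchor, against 24.5% of all genes, and hence within 50 kb, against 40.8% of all and 49.2% of those on chromosome 7. The genes were chosen with these loops known, so nothing is read from the counts. The median distance from a protein-coding gene to the nearest anchor was 94.9 kb. The count of 4 turns on a few kb or on single loops. With anchors widened by 10 kb it was 7, and in the 1701 placed loops with the lowest FDR, which leave out the LTA and TNF loop, it was 2 (PSMB9 and TAP2).

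**Figure D5:**
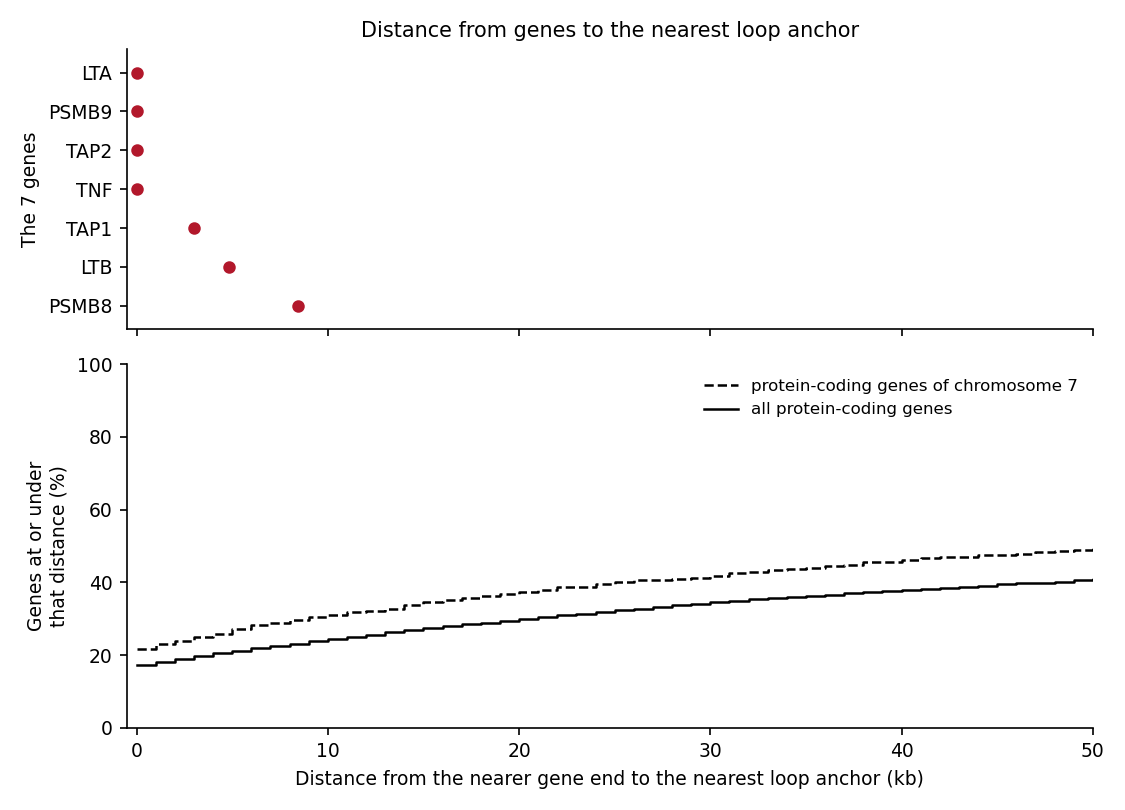
Distance in kb from the nearer gene end to the nearest loop anchor for the 7 genes (top) and, below, the percentage of all protein-coding genes (solid) and of those on chromosome 7 (dashed) at or under each distance. The 7 genes lie between 0 and 8.46 kb. Of all genes, 17.3% are at 0 kb, 23.8% within 9 kb and 40.8% within 50 kb. On chromosome 7, 30.4% are within 9 kb.

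More loops were listed around the class II block than around the TNF block. The class II part, taken as the span of its listed genes from BTNL2 to RING1 (chr7:24789988-25255526), had 22 protein-coding genes, of which 11 (50%) had an end in an anchor. The class III part, from MCCD1 to NOTCH4 (chr7:23656623-24256281), had 55, of which 9 (16.4%) did, against 17.3% of all protein-coding genes and 21.7% of those on chromosome 7. Loops were centred in the class II part at 12.9 per Mb (6 loops) and in the class III part at 3.34 per Mb (2 loops), against 1.78 per Mb on chromosome 7 and 1.496 ± 0.458 per Mb over autosomes (SD, n = 18 chromosomes). With touching pixels reduced to 1, the class II part had 8.59 per Mb (4 loops), against 1.17 on chromosome 7. The class III part stayed at 3.34 per Mb (2 loops). BTNL2 and RING1, which bound the class II part, have ends in loop anchors, so its span stops near its outermost loops. With each part widened by 100 kb at both ends, the class II part had 9.02 per Mb (6 loops) and the class III part 3.75 per Mb (3 loops). These densities rest on few loops and were not tested, and neighbouring genes share anchors. The class III loops lay at its TNF end, and the other end, which holds the complement genes C2, CFB and C4A, and NOTCH4, had none. From chr7:23900001 to 24800000, 900 kb with 36 whole protein-coding genes, no loop was listed, and no TAD from chr7:23960001 to 24790000. Such stretches were common, since 63.8% of those without a loop were as short or shorter. The stretch without a loop and that without a TAD both include the whole interval between the parts, where the centromere lies. How well that interval is assembled or mapped was not tested. No loop joined the class III part to the class II part. Any such loop would have had to cross the centromere and span about 534 to 1599 kb of the assembly. Loops of that length made up 178 of the autosomal loops (5.46%), 11 of them on chromosome 7.

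Other genes of the class II and III parts were counted from lists drawn up from general knowledge, with earlier results of these data known. Of 18 matched class II genes, 10 (55.6%) had an end in an anchor, against 17.3% of all protein-coding genes and 21.7% of those on chromosome 7. All 18 had one within 50 kb, against 40.8% of all and 49.2% of those on chromosome 7. Their median distance was 0 kb, against 94.9 kb for all protein-coding genes. The 18 included the 4 antigen-processing genes, which were chosen with their loops known. Neighbouring genes of the list shared anchors, so they are not independent observations, and nothing is read from the counts. TAPBP, the tapasin that bridges TAP and class I molecules, was the listed class II gene that lay elsewhere and is also counted under peptide loading, at chr7:29663491-29673453. Of 39 matched class III genes, 5 had an end in an anchor, namely NFKBIL1, LTA, TNF, GPANK1 and CSNK2B. That is 12.8%, against 17.3% of all protein-coding genes and 21.7% of those on chromosome 7. An end within 50 kb was found for 20 (51.3%), against 40.8% of all and 49.2% of those on chromosome 7, and the median distance was 29.8 kb, against 94.9 kb for all. With VARS and SKIV2L, which the gene table holds under these older symbols, and the chromosome 7 copy of CLIC1, an addition made after the values were seen, 6 of 42 had an end in an anchor and 22 had one within 50 kb.

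Listed partners of the same pathways elsewhere in the genome were few, and nothing particular to them is read from their counts. Of 9 matched genes of peptide loading, 3 (33.3%) had an end in an anchor, against 17.3% of all protein-coding genes, and 6 (66.7%) had one within 50 kb, against 40.8%. Their median distance was 3.43 kb, against 94.9 kb for all. CALR, a chaperone of the loading complex, had a 125 kb loop to LYL1 and NFIX, with 113 contacts (93.1 to 135.9) against 59.5 expected. NLRC5, which activates class I genes, had a 100 kb loop with 144 contacts (121.4 to 169.5) against 88.8 expected, to an anchor without a protein-coding gene end. TAPBP had a 150 kb loop to BAK1, with 108 contacts (88.6 to 130.4) against 65.8 expected. The largest FDR of the loop was 0.0191 for CALR, 0.00207 for NLRC5 and 0.0728 for TAPBP. PSMB10, the other interferon-induced proteasome subunit, was 77.4 kb from an anchor. PDIA3 and TAPBPL, a disulfide isomerase and a tapasin-related protein of peptide loading, were 836 and 663 kb from one. The list of TNF and lymphotoxin receptors and adaptors also held a ligand, TNFSF14, which was 53.2 kb from an anchor. Of the 7 matched genes of this list, 4 (57.1%) had an end in an anchor, against 17.3% of all protein-coding genes. The same 4 were those within 50 kb, against 40.8%. The median distance of the 7 was 0 kb, against 94.9 kb for all. TNFRSF1B, a TNF receptor, had a 100 kb loop with 151 contacts (127.9 to 177.1) against 86.9 expected. Its largest FDR was 0.0965, near the highest listed, 0.0999. The adaptor TRADD had 2 loops, of 125 and 200 kb, with ratios of 1.65 and 1.73 and largest FDRs of 0.00856 and 0.0262. The median ratios of autosomal loops of those lengths were 1.87 and 2.07. RIPK1 and MAP3K14, kinases downstream of these receptors, had 1 each, with ratios of 1.67 and 1.72 and largest FDRs of 0.0260 and 0.0678. LTBR and TNFRSF1A, the receptors for lymphotoxin beta complexes and for TNF, were 746 and 794 kb from the nearest anchor.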

How the data were processed

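In situ Hi-C of pig spleen (2 replicates, DpnII, per the labels' protocols) was analysed from 2 deposited tables of the whole series. The submitters' processing notes name HiC-Pro 3.1.0, and juicer_tools 1.9.9 wrote the loop table, per the file headers. For each loop the authors deposited the observed contact count, not normalized, and the expected signal from 4 neighbourhoods. They also deposited 4 q-values (FDR) per loop, up to 0.0999. TADs are starts and ends in steps of 10 kb. The build, the TAD caller and any pooling of replicates were not given in the sources used here. Genes came from RefSeq for Sscrofa11.1 (28210 genes on placed chromosomes), and coordinates are counted from 1. Of the loops, 3402 lay on placed chromosomes.

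Distances from gene ends to 25 kb anchors, same-span percentiles and exact Poisson intervals (95%) were computed with Python 3.11.15, pandas 2.3.3, numpy 2.4.6 and scipy 1.17.1. Distances were tested on simulated data, where 200 of 200 planted values were recovered. The FDR of a loop is the largest of its 4. The genes, lists and rules were chosen with earlier results of these data known. The genes named are the 7, those sharing their anchors or lying in partner anchors, and the listed genes. Of the lists, 18 of 19 class II, 39 of 44 class III, 9 of 10 peptide loading and 7 of 10 TNF names gave a distinct placed protein-coding gene by symbol or synonym. HSPA1A and HSPA1B matched the same gene, VARS1 and SKIC2 stand under older symbols, and CLIC1 is held by 2 genes; a count with these 3 was added after seeing the data. A planned search for motifs in promoters was not run. Alternatives were other distances, whole gene spans, the loops with the lowest FDR, touching pixels reduced to 1, and wider parts.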

Additional observations from a re-analysis of the deposited data

How the results depend on the processing

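Of 37 alternative values, 32 stayed within 1.5 times the reported count, or within the counting interval of the median ratio, and 5 moved. The 2 on older gene symbols were chosen after seeing the data. The count of the 7 genes with an end in an anchor, 4 as reported, was 7 with anchors widened by 10 kb and 2 in the 1701 placed loops with the lowest FDR. Within 20 kb in place of 50 kb of the gene ends, 4 loops were counted in place of 7, with a median contact ratio of 2.05 in place of 2.58. In the loops with the lowest FDR, loop density in the class III part was 1.67 per Mb in place of 3.34, by loss of the LTA and TNF loop, when that of chromosome 7 was 0.911 in place of 1.78. The search for motifs in promoters was not run. No paired analysis was possible because there is a single group and no value per replicate, and no replicate could be left out for the same reason. The 25 kb bins limit what can be placed. TNF lay 366 bp inside the right edge of its anchor. SLA-DRA began 37 bp to the right of the BTNL2 anchor and so fell in the adjoining one.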
